A study of Homo sapiens with 12 samples.

Results

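The protocadherins are the largest family of cadherin-type cell adhesion proteins, and their genes fall into clustered members, packed side by side on chromosome 5, and unclustered members at loci of their own. The 63 genes described here are the autosomal protein-coding genes whose symbols start with PCDHA, PCDHB or PCDHG (53 clustered genes) or consist of PCDH and a number (10 unclustered genes), of 19126 autosomal protein-coding genes in RefSeq. Each gene took the window on its own strand whose transcription start site (TSS) lay nearest its RefSeq 5′ end, within 1000 bp. That gave a window to 60 genes, 52 clustered and 8 unclustered. PCDHGA8, PCDH12 and PCDH17 had none, at 2476, 11539 and 1702 bp from the nearest window. Members were selected on symbol and position, but the set and its comparison were chosen by a reading of these libraries' BG4 peaks and read densities, so those values are given as a description, without a test. At the edge of the distance rule, PCDHA9 lay just inside at 919 bp, with 4.87 CPM (read counts scaled to library totals), and PCDH17 just outside, with 16.4 CPM in the window 1702 bp away.

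The study profiled G-quadruplexes, 4-stranded folds of guanine-rich DNA, by ChIP-seq with BG4, a recombinant antibody fragment raised against them. All samples were HEK293 cells, a long-established line from human embryonic kidney, given no treatment in the labels and fixed with formaldehyde before the chromatin was sheared. Of the 12 samples, 9 were ChIP libraries, 3 technical ones for each of the biological replicates BioRep1, BioRep2 and BioRep3. The other 3 were inputs, which were not analysed here, so no density was set against chromatin taken without the antibody. The design has 1 cell line and 1 condition, so the comparisons are between genes and between replicates. The windows, 58381 in all and 400 bp long, held 372030 to 846114 reads per ChIP library; CPM are scaled to the total of these reads, and intervals cover counting error only.

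Clustered protocadherin genes are known for the way neurons use them. Each variable exon has its own promoter, a neuron switches on a small random choice of these promoters, and the resulting set of adhesion proteins gives the cell an identity that its neighbours can recognise. The choice involves DNA methylation and loops formed by CTCF and cohesin, and most of the promoters carry a short conserved element with the core CGCT. The C-type genes at the ends of the alpha and gamma clusters are expressed more uniformly, and unclustered protocadherins are regulated as single genes. BG4 reads do not measure expression, so which protocadherins HEK293 cells express, and the identity of the cells by their markers, could not be checked here.

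Promoters from both groups differed in their letters, and 6 of them are shown because the results below turn on them. They come from RefSeq (GRCh38.p14) and hold the 250 bases before the annotated start, or, for PCDH10, the 177 bases between its start and that of the divergent transcript PCDH10-DT. Capitals mark runs of at least 3 G or at least 3 C, the latter being G-runs on the opposite strand. PCDH9 (chr13:67230337-67230586, minus strand) lay entirely inside a peak of every biological replicate. PCDH10-DT (chr4:133149117-133149293, minus strand) shared 129 bases with a peak of BioRep2 and 128 with a peak of BioRep3. PCDH7 (chr4:30720119-30720368, plus strand) was rich in G-runs and held no peak. PCDHGC3 (chr5:141475716-141475965, plus strand) held the single peak of the chromosome 5 clusters. PCDHGC4 (chr5:141484780-141485029, plus strand) was its G-rich neighbour without a peak. PCDHB4 (chr5:141121568-141121817, plus strand) is a variable gene at the low end of the beta genes in density (5.10 CPM against a median of 7.13).
PCDH9: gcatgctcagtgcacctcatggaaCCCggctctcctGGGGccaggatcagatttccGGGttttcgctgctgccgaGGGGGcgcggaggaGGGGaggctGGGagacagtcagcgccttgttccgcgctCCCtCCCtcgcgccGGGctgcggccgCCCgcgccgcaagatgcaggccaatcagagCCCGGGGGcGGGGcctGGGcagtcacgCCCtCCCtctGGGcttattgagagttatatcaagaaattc
PCDH10-DT: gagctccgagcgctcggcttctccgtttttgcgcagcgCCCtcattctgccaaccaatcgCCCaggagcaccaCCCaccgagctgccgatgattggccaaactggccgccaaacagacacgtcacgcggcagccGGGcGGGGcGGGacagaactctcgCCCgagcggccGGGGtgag
PCDH7: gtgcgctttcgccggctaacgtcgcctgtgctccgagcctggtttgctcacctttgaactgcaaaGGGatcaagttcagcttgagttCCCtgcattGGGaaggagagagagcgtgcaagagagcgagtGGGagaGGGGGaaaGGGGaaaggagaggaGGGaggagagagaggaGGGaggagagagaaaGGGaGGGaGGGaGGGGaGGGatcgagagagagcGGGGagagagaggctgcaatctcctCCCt
PCDHGC3: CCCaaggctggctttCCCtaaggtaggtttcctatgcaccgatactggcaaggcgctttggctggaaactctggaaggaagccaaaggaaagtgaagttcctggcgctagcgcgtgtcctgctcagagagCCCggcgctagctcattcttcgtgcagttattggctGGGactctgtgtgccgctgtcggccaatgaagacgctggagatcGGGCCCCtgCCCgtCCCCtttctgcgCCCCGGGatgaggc
PCDHGC4: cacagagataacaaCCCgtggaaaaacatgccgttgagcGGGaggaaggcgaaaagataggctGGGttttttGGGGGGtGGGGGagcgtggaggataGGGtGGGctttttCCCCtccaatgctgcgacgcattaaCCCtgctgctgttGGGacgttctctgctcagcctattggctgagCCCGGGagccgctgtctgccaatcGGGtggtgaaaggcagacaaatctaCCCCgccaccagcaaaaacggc
PCDHB4: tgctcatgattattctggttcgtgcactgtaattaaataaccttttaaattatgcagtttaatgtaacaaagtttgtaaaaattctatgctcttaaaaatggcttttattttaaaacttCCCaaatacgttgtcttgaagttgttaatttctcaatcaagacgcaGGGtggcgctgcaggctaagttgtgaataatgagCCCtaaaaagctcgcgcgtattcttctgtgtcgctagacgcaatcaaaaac

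In these stretches PCDH9 held 10 G-runs and 7 C-runs, PCDH7 13 and 2, PCDHGC4 9 and 5, PCDHGC3 3 and 7, and PCDHB4 1 and 2. The shorter PCDH10-DT stretch held 4 and 4. GC content was 66.8% for PCDH9, 67.8% for PCDH10-DT, 59.6% for PCDH7, 60.0% for PCDHGC3, 57.6% for PCDHGC4 and 35.6% for PCDHB4. PCDH7, with the most G-runs on the gene's own strand, had no peak, and PCDH9, with the most runs over both strands, was covered by peaks throughout. PCDH10-DT, with fewer runs than the peak-free PCDH7 and PCDHGC4, shared bases with peaks of BioRep2 and BioRep3.

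No clustered protocadherin gene carried a BG4 peak found in all 3 biological replicates, here called a consensus peak. The count was 0 of 52 windows. Allowing up to 3 counts for a count of 0, the upper limit of the share was 5.77%. That limit covers counting error only and takes neighbouring genes as independent, so it is not a test. Of the 8 unclustered genes with a window, PCDH9 alone had a consensus peak, a share of 12.5% (95% Wilson interval 2.24 to 47.1%). Over all 16069 windows of autosomal protein-coding genes, 24.5% had a consensus peak. A peak in at least 2 lists was present at 0 clustered genes and at 2 unclustered genes, PCDH9 and PCDH10, against 34.9% of all. Without BioRep1, which had no PCDH10 peak, the unclustered share with a peak of both remaining lists was 25%. The share of all windows under that rule was not computed, so neither 24.5% nor 34.9% is its background. A peak in any list was present at 1 clustered gene, PCDHGC3 (1.92%), and at the same 2 unclustered genes (25%), against 42.1% of all.

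Windows can miss a promoter, so peaks were also counted within 1000 bp of the RefSeq 5′ end with no window needed. In that count, added after the data were seen, 0 of 53 clustered and 2 of 10 unclustered genes (20%) had peaks of all 3 lists, against 28.7% of 18405 autosomal protein-coding genes. The added gene was PCDH17, a delta-2 protocadherin, whose counted window lay downstream of its peaks.

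The clustered genes also had few reads. Their median density was 7.57, 7.77 and 7.26 CPM in BioRep1, BioRep2 and BioRep3, or 7.53 ± 0.259 CPM (SD, n = 3). The unclustered genes had 22.6, 25.4 and 21.1 CPM, or 23 ± 2.17 CPM. Over all autosomal protein-coding windows the median was 24.0 ± 0.629 CPM. The clustered median lay far below it and the unclustered median near it, or at 19.7 ± 2.10 CPM without PCDH9. These SDs are over replicates and do not measure the spread between genes, which was 13 to 195 CPM for the unclustered ones. Of the clustered genes, 51 of 52 were below that overall median, and of the unclustered genes 5 of 8.

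The clustered median was about as low as that of peak-free windows not matched to a protein-coding gene. Such windows are not all outside coding promoters. A coding gene's window stays unmatched where it lies too far from the gene's RefSeq 5′ end. Peak-free autosomal windows with no protein-coding name had a median of 7.57 ± 0.448 CPM, and those on chromosome 5 had 7.15 ± 0.421 CPM. The 30 other windows inside the chromosome 5 clusters, none matched to a protein-coding gene, had 5.35 ± 0.322 CPM. They include the window nearest PCDHGA8 (8.72 CPM), 2476 bp from its 5′ end. Protein-coding windows without any peak had 11.4 ± 0.507 CPM and those with a consensus peak 64.5 ± 3.19 CPM.

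The log2 ratio of the clustered to the unclustered median was -1.58, -1.71 and -1.54 in the 3 biological replicates, a mean of -1.61 ± 0.0872 (SD, n = 3). The unclustered median was thus 3.06 ± 0.187 times the clustered one, and the ratio was below 0 in 9 of 9 libraries. Without PCDH9, a setting added after the data were seen, the unclustered median was 19.7 ± 2.10 CPM and the ratio to the clustered median 2.62 ± 0.190. Among the 4 clustered and 6 unclustered windows that passed edgeR's filter on low counts, which removes low windows, the log2 ratio was -0.46 ± 0.316. Of the 52 clustered genes, 48 lay below the lowest unclustered gene, PCDH20. The 4 above it were PCDHGC3, PCDHGC4, PCDHAC1 and PCDHGA11, of which 3 are C-type genes.

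**Figure D1:**
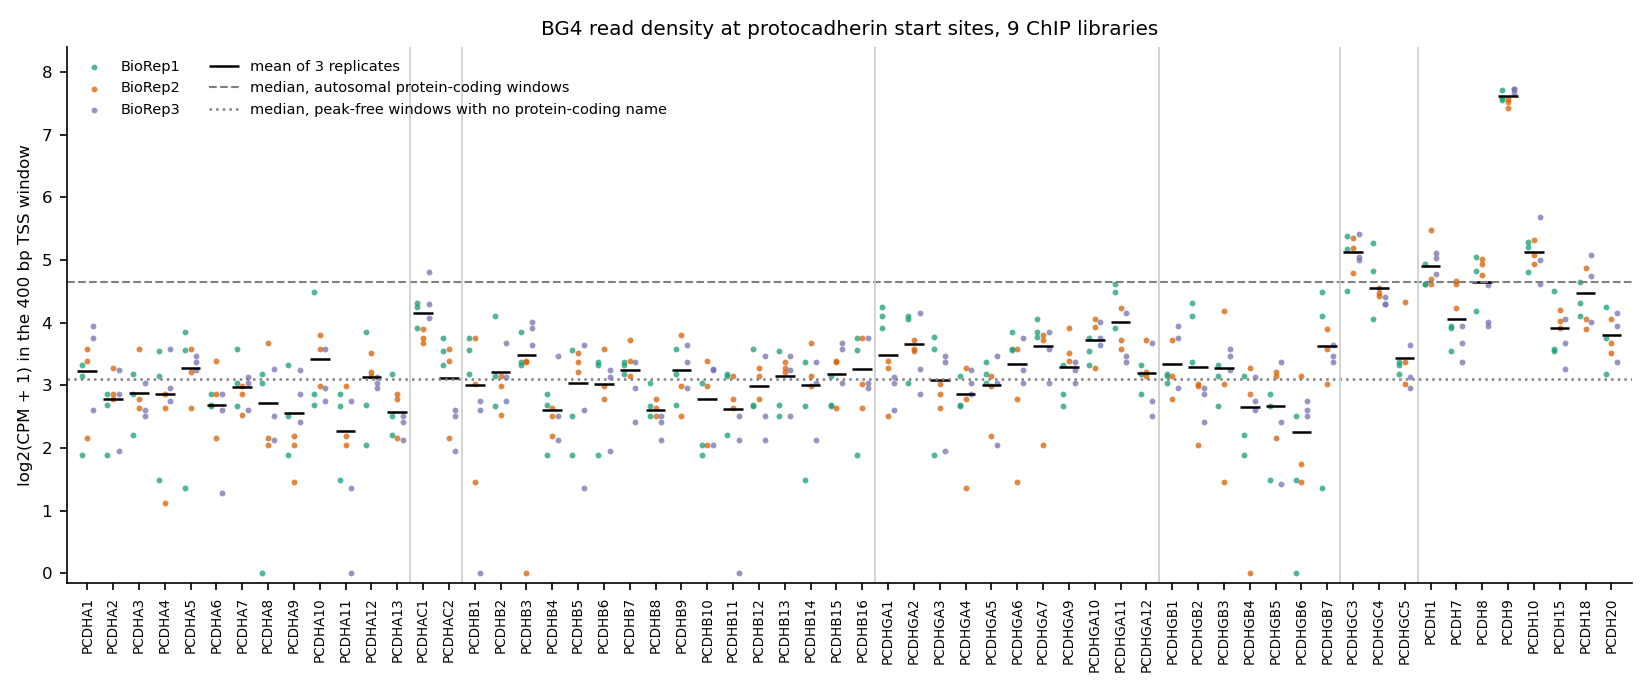
BG4 read density, as log2(CPM + 1), in the TSS window of each of 60 protocadherin genes; points are the 9 ChIP libraries, coloured by biological replicate, and black lines show the mean over 3 biological replicates. The variable clustered genes lie around the dotted line (7.57 CPM, peak-free windows with no protein-coding name), and PCDH9 stands at 195 CPM, above the dashed line of all protein-coding windows (24.0 CPM).

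PCDH9 encodes a delta-1 protocadherin, a homophilic adhesion protein of the nervous system. Its window (chr13:67230246-67230645) held 119, 78 and 105 reads in the 3 libraries of BioRep1, 105, 145 and 120 in those of BioRep2, and 136, 141 and 126 in those of BioRep3. Its density ranged from 171 to 212 CPM with a median library of 190 CPM, and the highest library of any other autosomal protocadherin window was 50.3 CPM, at PCDH10. The mean was 195 ± 14.2 CPM, 8.04 times the median of all protein-coding windows, and it ranked 3 of 16069. The counting interval of its 1075 reads was 1012 to 1141 (95%, exact Poisson, counting error only).

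PCDH9 peaks over the start were 456 bp long in BioRep1, 583 bp in BioRep2 and 551 bp in BioRep3. They began 358, 397 and 467 bp upstream of the RefSeq 5′ end and ended 97, 185 and 83 bp downstream. Smaller peaks upstream differed between lists: BioRep1 had one from 670 to 611 bp and BioRep3 one from 967 to 824 bp before the 5′ end. PCDH9 also had peaks inside its long gene body. BioRep2 and BioRep3 shared a region 395 kb from the 5′ end (222 and 371 bp long), within the span of the antisense transcript PCDH9-AS2, and BioRep2 had a peak of 71 bp at 5.98 kb.

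PCDH17, a delta-2 protocadherin of brain circuits, had a peak before its start in every list. The peaks were 78 bp long in BioRep1, 210 bp in BioRep2 and 175 bp in BioRep3. They began 102, 200 and 176 bp upstream of the 5′ end, so all 3 overlapped in the last part of the promoter. Its nearest counted window, 1702 bp away, had 16.4 ± 3.27 CPM and no peak, and so says nothing of the density at the peaks.

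PCDH10, a delta-2 protocadherin that links to the actin-regulating WAVE complex, had peaks in 2 lists. They ran from 179 to 49 bp upstream in BioRep2 and from 128 bp upstream to 19 bp downstream in BioRep3, so they covered the divergent promoter shown above, whose 2 starts are 178 bp apart. BioRep1 had no peak within 4056 kb. Its list was the shortest, with 7931 peaks against 11665 in BioRep2 and 13049 in BioRep3, and any part of list length in this was not tested. The densities in the 3 replicates matched, at 33.6, 33.8 and 35.0 CPM, or 34.1 ± 0.745 CPM. The single libraries ranged from 23.6 to 50.3 CPM. Its window overlaps the window of another transcript, so part of its reads were counted for both.

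**Figure D2:**
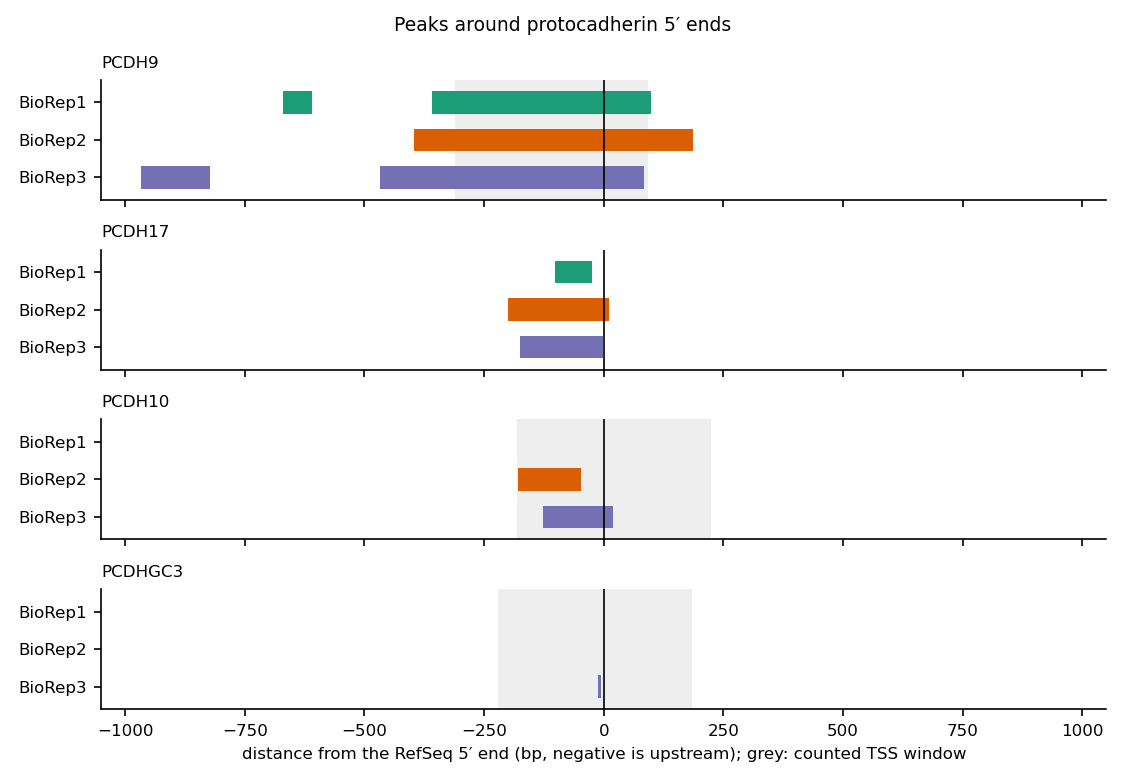
Peaks of BioRep1, BioRep2 and BioRep3 by their distance in bp from the RefSeq 5′ end of PCDH9, PCDH17, PCDH10 and PCDHGC3, with the counted window in grey (PCDH17 has none within 1000 bp). PCDH9 and PCDH17 have a bar in every row, PCDH10 in 2 rows, and PCDHGC3 a single 2 bp peak, drawn wider than scale to be visible.

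The other unclustered genes had no peak within 1000 bp of their starts. PCDH1, a delta-1 protocadherin of epithelia, had 28.9 ± 2.91 CPM (libraries 23.5 to 43.4), in a window 836 bp from its 5′ end. PCDH8, a delta-2 protocadherin also called arcadlin, had 24.0 ± 5.80 CPM (14.4 to 32.3), and PCDH18, of the same subfamily, 21.2 ± 2.92 CPM (13.9 to 32.7). These lay close to the median of all protein-coding windows. PCDH7, the third delta-1 protocadherin, had 15.6 ± 5.44 CPM (9.35 to 24.3), PCDH15, a component of the tip links of hair cells, 14.0 ± 1.85 CPM (8.62 to 21.7), and PCDH20 13 ± 0.455 CPM (8.06 to 18.1). The spreads of these lower genes overlapped, so their order was not resolved. PCDH12, the endothelial protocadherin VE-cadherin-2, had 15.3 ± 3.41 CPM in a window 11539 bp from its 5′ end, which does not describe its start.

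How far these genes lay from any peak varied by orders of magnitude. From the 5′ end of PCDH7 the nearest peak was 3860 kb away in every list, from that of PCDH18 1483 kb, and from that of PCDH20 1252, 1019 and 1019 kb in BioRep1, BioRep2 and BioRep3. It was 196 kb away for PCDH8, 45.3 kb for PCDH1 and 10.7 to 10.8 kb for PCDH12. PCDH15 had a peak 3.46 kb from its 5′ end in BioRep1 and 3.43 kb in BioRep3, but none within 733 kb in BioRep2.

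The alpha cluster begins with 13 variable genes, PCDHA1 to PCDHA13, whose first exons are joined to shared constant exons. They had a median of 6.23 ± 0.220 CPM, with genes from 3.82 to 9.72 CPM and no peak. PCDHA10 (9.72 ± 1.71 CPM, 52 reads in 9 libraries) and PCDHA5 (8.68 ± 0.566 CPM, 47 reads) were the highest of these. PCDHA11 (3.82 ± 1.2 CPM, 21 reads), PCDHA9 (4.87 ± 1.84 CPM) and PCDHA13 (4.93 ± 0.715 CPM) were the lowest. The windows of PCDHA9 and PCDHA11 lay 919 and 774 bp from the 5′ end, so their values are of flanking sequence. At 21 reads the counting interval ran from 13 to 32.1 reads, and most of the order among variable genes is within such intervals.

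PCDHAC1 and PCDHAC2, the C-type genes of the alpha cluster, differed. PCDHAC1 had 17.0, 12.7 and 20.5 CPM in BioRep1, BioRep2 and BioRep3 (16.7 ± 3.88), above every variable alpha gene in each replicate mean. PCDHAC2 had 10.8, 7.96 and 4.20 CPM (7.65 ± 3.30), within the range of the variable alpha genes, in a window 241 bp from its 5′ end that overlaps another.

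The 16 beta genes, which consist of single coding exons without shared constant exons, had a median of 7.13 ± 0.525 CPM and ranged from 5.05 to 10.2 CPM, with no peak. PCDHB3 was the highest at 10.6, 6.28 and 13.6 CPM in the 3 replicates (10.2 ± 3.66), followed by PCDHB16 (8.59 ± 0.276) and PCDHB9 (8.52 ± 0.584). PCDHB8 (5.05 ± 0.849), PCDHB4 (5.10 ± 0.819, 29 reads in all) and PCDHB11 (5.17 ± 2.15) were the lowest. The replicates of PCDHB3 spanned values of both ends of the cluster, so its lead did not exceed its own spread.

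In the gamma cluster the A and B subfamilies, named for sequence similarity and interleaved along the DNA, stood at 9.50 ± 1.23 CPM (11 PCDHGA genes, 6.29 to 15.1) and 6.71 ± 0.634 CPM (7 PCDHGB genes, 3.77 to 11.4). PCDHGA11 was the highest variable gene, with 19.7, 13.6 and 12.1 CPM (15.1 ± 4.04). PCDHGB6 was the lowest clustered gene, with 2.17, 3.98 and 5.16 CPM (3.77 ± 1.50, 22 reads in all). PCDHGB4 (5.30 ± 0.791 CPM) and PCDHGB5 (5.37 ± 1.05 CPM) were the next lowest within the gamma cluster. Over all 47 variable genes of the 3 clusters the median was 7.14 ± 0.297 CPM, and none had a peak in any list.

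The gamma C-type genes held the 2 highest densities of the clustered genes. PCDHGC3, a broadly expressed C-type gene, had 32.5, 34.0 and 34.9 CPM, or 33.8 ± 1.25 CPM (189 reads, counting interval 163 to 218). That is level with PCDH10 (34.1 ± 0.745 CPM), and it was the 1 clustered gene above the median of all protein-coding windows. Its peak, in BioRep3 alone, which had the longest list, was 2 bp long, from 12 to 11 bp before the 5′ end. PCDHGC4, a gene needed for the survival of certain neurons, had 26.8, 21.4 and 19.2 CPM (22.5 ± 3.93), and PCDHGC5 8.84, 11.9 and 8.67 CPM (9.79 ± 1.79), with no peak. In each replicate PCDHGC3 was above PCDHGC4 and PCDHGC4 above PCDHGC5. The 5 C-type genes together had a median of 16.3 ± 3.28 CPM.

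Along chromosome 5 the clusters formed a gap in the peak map. From the start of PCDHA1 to the end of the gamma cluster (chr5:140786140-141512975, 727 kb) there were 0 peaks in BioRep1, 0 in BioRep2 and 1 in BioRep3, the PCDHGC3 peak. At the density of the whole chromosome the same length would hold only 1.35, 2.02 and 2.27 peaks. How often spans of this length hold 0 or 1 peaks was not tested. The span is dense in start sites, with 114 windows per Mb against 15.8 on chromosome 5, which a rate per length leaves out. The nearest peaks lay 85.7 to 85.8 kb before the span and 106 kb after it. Leaving aside the 2 bp peak, the gap between flanking peaks was 919, 918 and 919 kb.

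Peaks were present at genes beside the clusters. Of 17 other protein-coding genes in the span or within 200 kb of it, 15 had a window. A consensus peak was present at 5 of those (33.3%, 95% Wilson interval 15.2 to 58.3%), against 24.5% of all protein-coding windows. The interval is wide and takes neighbouring genes as independent, so it does not test them against that share. The 5 genes were DIAPH1 (73.4 ± 7.13 CPM), HARS2 (70.3 ± 8.89), WDR55 (65.2 ± 2.44), RELL2 (50.9 ± 2.56) and HDAC3 (50.5 ± 3.27). NDUFA2 (52.1 ± 8.06 CPM) and IK (45.1 ± 9.03) had peaks in 2 lists and FCHSD1 (35.9 ± 6.61) in 1. ARAP3 (20.5 ± 4.73 CPM), HARS1 (19.2 ± 4.61), DND1 (10.5 ± 2.02), LOC112267855 (8.99 ± 0.958) and CD14 (5.52 ± 2.59) had none. TMCO6 and ZMAT2 had no window. Inside the span, between the beta and gamma clusters, the intronless genes TAF7 (24.4 ± 1.11 CPM) and SLC25A2 (5.69 ± 3.38 CPM) had no peak either. TAF7, which encodes a subunit of the general transcription factor TFIID, was thus denser than every variable protocadherin gene around it.

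**Figure D3:**
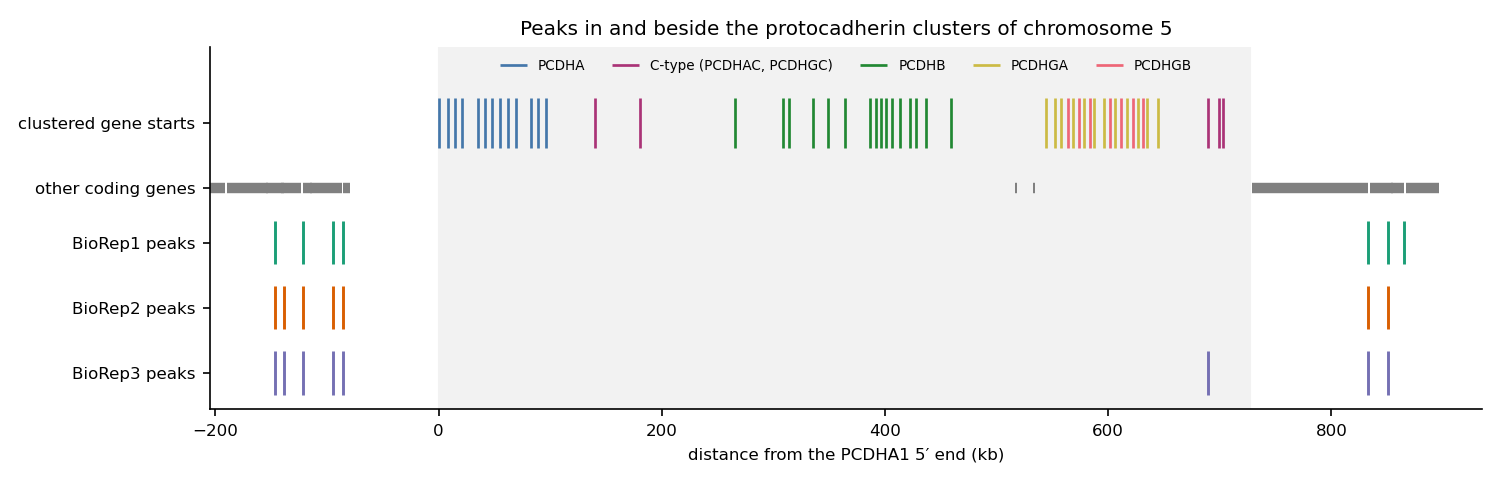
Start sites of the clustered protocadherin genes, other protein-coding genes and the peaks of each biological replicate, by distance in kb from the PCDHA1 5′ end (peaks and starts are drawn as lines of fixed width; grey marks the span of the clusters). Peaks recur in all 3 rows on both sides, and inside the 727 kb span the 1 line is the 2 bp peak of BioRep3 at PCDHGC3.

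Base composition also differed between the groups. Promoter sequences (250 bases before to 50 after the RefSeq start) were found for 55 of the 63 genes, and 46 clustered and 6 unclustered genes had both a promoter and a window. Among those left out were PCDH10, PCDH20 and the C-type gene PCDHGC5, without a promoter entry, and PCDH12 and PCDH17, without a window. The promoter counts therefore leave out PCDH10 and PCDH17, which had peaks at their starts. Median GC content was 39.7% for clustered genes (32.3 to 66.0%), 57.5% for unclustered genes (54.3 to 65.7%) and 63.0% for all 12806 protein-coding promoters with a window. Runs of at least 3 G or 3 C numbered 4 per clustered promoter in the median, 16 per unclustered promoter and 15 over all. The C-type promoters were the exception among clustered genes, at 66.0% GC for PCDHAC1, 63.0% for PCDHAC2, 60.7% for PCDHGC4 and 59.0% for PCDHGC3, while variable promoters ranged from 32.3 to 51.3%.

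A usual sequence pattern for a G-quadruplex is 4 runs of at least 3 G separated by loops of 1 to 7 bases, searched here on both strands. It was found in 0 of 46 clustered promoters, in 3 of 6 unclustered promoters (PCDH7, PCDH18 and PCDH1) and in 30.5% of all. For PCDH1 the promoter in the table lies 9619 bp from the counted window, so its sequence and density are of different places. PCDH9, with the highest density, did not hold this pattern. With loops of up to 12 bases, a length chosen after the data were seen, the pattern was found in 2 of 46 clustered promoters (PCDHAC2 and PCDHGC3), in 4 of 6 unclustered ones, PCDH9 now among them, and in 45.7% of all. A match describes the letters and not a folded structure.

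The letters CGCT, the core of the conserved protocadherin element, stood on the gene's strand in 45 of 46 clustered promoters (97.8%), PCDHA9 being the exception, and in 66.6% of all promoters. Among protein-coding promoters under 45% GC the share was 16.8%. A match of 4 letters is not a site of the element, which several C-type genes and PCDHB1 are known to lack although these letters occur in their promoters.

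Clustered genes under 45% GC had a median density near that of all genes under 45% GC. The following counts use the 10020 protein-coding genes whose promoter lies within 200 bp of the counted TSS, in strata chosen after the data were seen. Under 45% GC, 0 of 1146 windows had a consensus peak and the median was 7.48 CPM, and the 31 clustered genes there had 8.06 CPM. From 45 to under 55% GC, 4.5% of 1533 windows had a consensus peak and the median was 12.4 CPM, against 8.04 CPM for 8 clustered genes and 14.0 CPM for the unclustered PCDH15. From 55 to under 65% GC the share was 28.3% of 3077 and the median 34.3 CPM, against a median of 28.1 CPM for the clustered genes PCDHGC3 (33.8) and PCDHGC4 (22.5). The 3 unclustered genes in that stratum were PCDH8 (24.0 CPM), PCDH18 (21.2) and PCDH7 (15.6). PCDHGC3 lay above all of them and PCDHGC4 between PCDH8 and PCDH18, so these few genes of both groups interleaved. At 65% GC or more the share was 45.4% of 4264 and the median 44.5 CPM, and the 2 members there were PCDHAC1 (16.7 CPM) below it and PCDH9 (195 CPM) above it. Promoters with the G-quadruplex pattern had a consensus peak in 37.4% of cases and those without it in 25.1%.

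Across genes, GC content and density had a Spearman correlation of 0.29 over 42 clustered genes, 0.49 over 47 members and 0.50 over 10020 protein-coding genes. For the number of runs the values were 0.21, 0.43 and 0.32. Genes are not independent replicates and share the same 9 libraries. The part of GC content in the difference between clustered and unclustered genes was not tested.

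**Figure D4:**
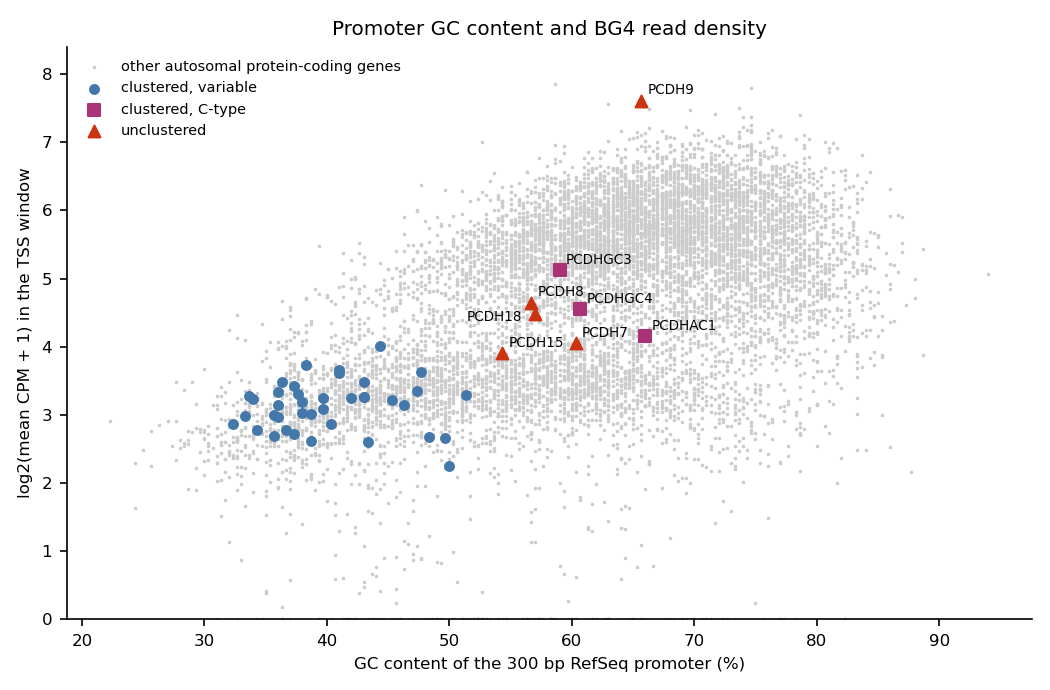
Mean BG4 density, as log2(CPM + 1), against the GC content of the RefSeq promoter for 10020 autosomal protein-coding genes (grey), with 42 clustered and 5 unclustered protocadherin genes marked. Variable clustered genes sit at the low-GC, low-density end, the C-type genes PCDHGC3, PCDHGC4 and PCDHAC1 among promoters of 59.0 to 66.0% GC, and PCDH9 near the top.

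No protocadherin window was called different between replicates. By edgeR's quasi-likelihood test over BioRep1, BioRep2 and BioRep3, 0 of 17499 windows passed an adjusted p of 0.05 (0% of those tested), 1379 had an unadjusted p under 0.05, and DESeq2's likelihood ratio test also called 0, with 334. The filter on low counts kept 10 members, the 4 clustered genes PCDHAC1, PCDHGA11, PCDHGC3 and PCDHGC4 and 6 unclustered genes. None passed, and PCDH7 had the lowest p, 0.0475 unadjusted and 0.628 adjusted by edgeR, at 13.1, 21.8 and 11.8 CPM. For PCDH9 the log2 difference between BioRep3 and BioRep2 was 0.19 (adjusted p 0.888, edgeR). The labels do not say whether technical libraries came from separate cultures, so these p-values measure the spread between technical libraries.

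Other cadherin families give a scale for these values. Classical and related cadherins had a consensus peak in 1 of 20 windows and a median of 9.93 ± 0.559 CPM, led by CDH15 (63.3 ± 5.56 CPM) and CDH2, the neural cadherin (53.8 ± 8.60 CPM, peaks in 2 lists). The desmosomal cadherins (7 genes), CELSR cadherins (3), calsyntenins (3), FAT and Dachsous cadherins (2) and cadherin-related genes (2) had none. Genes for known regulators of protocadherin promoter choice had one in 4 of 10 windows, CTCF (92.0 ± 16.0 CPM), WAPL (88.3 ± 10.9), STAG1 (82.4 ± 8.59) and RAD21 (45.6 ± 7.59). Those for intracellular partners of protocadherins had one in 7 of 15, led by TAOK2 (188 ± 9.93 CPM), DAB1 (97.7 ± 11.3) and ABI1 (88.1 ± 4.84). These lists, too, were written with results of these data known and are set beside the background of 24.5% as a description. The X-linked PCDH19, outside the autosomal rule, had 38.6 ± 3.00 CPM and a peak of 15 bp in 1 list.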

How the data were processed

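BG4 ChIP of HEK293 chromatin was read from 2 kinds of deposited file. The authors deposited whole-number read counts in 58381 windows of 400 bp centred on annotated start sites, 1 file per ChIP library, and 1 peak list per biological replicate, with positions and no score. Per the submitters' processing notes, bedtools, MACS2, Picard, BWA and cutadapt were used with build hg38. Tool versions, the peak threshold and duplicate handling were not given in the sources used here. Windows carry Ensembl IDs and were named by position from RefSeq (GRCh38.p14). Strand came from the RefSeq promoter table; the 8 members absent from it could take a plus-strand window at their start or a minus-strand window at their end.

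CPM were computed here from the deposited counts, scaled to the total reads in windows (372030 to 846114 per library), averaged over 3 technical libraries and given as mean ± SD over 3 biological replicates. A window had a consensus peak when each of the 3 lists had a peak in it. Differences among the 3 replicates were tested with edgeR 4.0.16 in R 4.3.3 (TMM, filterByExpr, robust quasi-likelihood test, Benjamini-Hochberg over all windows tested), checked on simulated data; DESeq2 1.42.0 was an alternative. Python 3.11.15, numpy 2.4.6 and pandas 2.3.3 did the rest. Shares have 95% Wilson intervals, and a count of 0 allows up to 3 counts.

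The members and lists were chosen with earlier results of these data known. Named were every unclustered member, the 3 highest and 3 lowest genes by mean CPM of each cluster, every clustered gene with a peak, the C-type genes, all neighbours within 200 kb, and up to 3 genes per related list by CPM; RAD21 and the PCDHGA8 window distance were named beyond the rule. Alternatives were other scalings, filters, overlaps, window distances and strands, the technical number as a block, and leaving out libraries or replicates. Chosen after seeing the data were the counts at the RefSeq 5′ end, the values without PCDH9, the GC strata and the 12-base loops.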

Additional observations from a re-analysis of the deposited data

How the results depend on the processing

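The direction of every result held under each alternative run, with the exceptions in size given here. The clustered median rose to 20.2 CPM when only the 4 clustered windows that pass edgeR's filter were kept, since the filter removes low windows; the unclustered median was then 27.6 CPM and the log2 ratio -0.46. The nearest window on either strand, leaving out overlapping windows, and leaving out PCDH9 each put the unclustered median at 19.7 CPM, with log2 ratios of -1.40, -1.37 and -1.39. The difference of mean log2(CPM + 5) was -1.33. Leaving out a library or a biological replicate gave ratios from -1.67 to -1.52, clustered medians from 7.33 to 7.67 CPM and unclustered shares with a consensus peak from 12.5 to 25%; the clustered share stayed at 0. With 200 kb added to both sides the chromosome 5 span held 5 consensus regions instead of 0. Without the filter on low counts edgeR called 25 windows different between replicates, and leaving out a library gave 0 to 1. The technical numbers in the titles did not pair the libraries: same-number correlations of deviations ranged from -0.0146 to 0.0263, and 3 of 9 libraries correlated best with their own number. With the number as a replicate block, edgeR called 0 windows. Depth limits the order among variable genes, whose windows held 21 to 82 reads over 9 libraries, and 8 unclustered windows limit their share to a wide interval.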
